A study of Mus musculus with 6 samples.

Results

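The nuclear genes of oxidative phosphorylation were examined in hearts of Rbpms knockout and wildtype mice. Members were the protein-coding genes of the deposited table whose symbols name subunits of the respiratory complexes: Nduf followed by a, b, c, s or v and a digit, Sdha to Sdhd, and symbols starting with Uqcr, Cox4 to Cox8 or Atp5. This rule found 84 of 20893 genes, with 38 in complex I, 4 in complex II, 8 in complex III, 17 in complex IV and 17 in complex V (ATP synthase). The complex was assigned from the symbol alone, so Ndufa4, a subunit now placed with cytochrome c oxidase, was counted in complex I. A test was made for 83 members. The other one, Cox5b-ps, is a pseudogene by its symbol but listed as protein coding, and it had values of 6 to 8 in every library. A further 11 rows matched the symbols but were listed as other biotypes, with means of 1.33 to 16, and were not counted as members.

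The knockout group was 3 libraries from hearts labelled R1KO, which the series describes as germline RBPMS knockouts, and the control group was 3 libraries labelled wildtype, described as littermates. Both groups carry the strain label C57BL6/J. The series text calls the hearts embryonic in one place and neonatal in another, so the stage is not settled here, and no label says that each library is a separate animal. P-values therefore measure the spread between these libraries, which may be technical in part.

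Oxidative phosphorylation makes most of the ATP of the heart. Complexes I and II pass electrons from NADH and succinate to ubiquinone, complex III passes them to cytochrome c, complex IV passes them to oxygen, and complex V uses the resulting proton gradient to make ATP. Several subunits of complex IV exist as a heart and muscle isoform and a more widely expressed isoform, and the balance of some of these isoforms shifts as the heart matures. The subunits encoded in mitochondrial DNA were not analysed here.

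RBPMS is an RNA-binding protein of cardiomyocytes and smooth muscle. Rbpms had values of 375, 340 and 507 in the knockout libraries against 1182, 1176 and 1317 in wildtype (log2 difference -1.61, SE 0.14; limma adjusted p = 0.0124). The deposited whole numbers were spaced like read counts multiplied by 1 factor per library, estimated at 0.8524 to 1.1798, and rounded. Dividing by the factor and rounding gave recovered reads, which are unsure by up to 1 read in the 3 libraries with a factor below 1, where the rounding hides the spacing in part. These summed to 5244596, 4773244 and 5805783 in knockout 1 to 3 and to 4655117, 5060232 and 4163230 in wildtype 1 to 3, so knockout 3 was deepest and wildtype 3 shallowest, 1.395-fold apart. Xist was at 1763 in knockout 3 and 1770 in wildtype 1 and at 14 or less in the other 4 libraries. All 13 cardiomyocyte markers were tested, and their summed value was 32965 to 37204 in knockout and 34506 to 37793 in wildtype libraries. In bulk RNA, fewer cells of a type and less RNA per cell cannot be told apart.

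No nuclear subunit of the respiratory chain rose or fell in the knockout hearts by the test. Of 83 tested members, 0 were higher and 0 were lower at a limma adjusted p under 0.05, where 141 of 14974 genes, 0.942%, were called (76 higher, 0.508%, and 65 lower, 0.434%). The count of 141 ran from 0 (without wildtype 2, and without wildtype 3) to 727 (without knockout 3) when 1 library was left out, and that of the members was 0 each time. At an unadjusted limma p under 0.05 the counts were 0 of 83 members and 2456 of all genes (16.4%). The knockout and wildtype libraries overlapped in value for every tested member, while they did not overlap for 1654 genes that were higher (11.0%) and 1637 that were lower (10.9%). The members' log2 fold changes, knockout over wildtype on the log2(value + 1) scale, ran from -0.31 to 0.12 with a median of -0.05, beside -0.00 for all tested genes, and 16 members lay above 0 and 67 below. The 95% intervals reached from -0.72 to 0.46, and 81 of the 83 intervals stayed within a 1.5-fold change either way and all 83 within a 2-fold change. Smaller differences than these were not resolved by 3 libraries a group. The intervals describe the deposited values. Recovered reads of the members differed between libraries by a median of 1.18-fold, while library totals differed by 1.395-fold. Whether the members' values follow the amount of RNA in proportion was not tested.

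The 5 complexes had similar medians. Complex I lay at -0.04 (range -0.16 to 0.12, 10 of 38 members above 0), complex II at -0.06 (-0.10 to 0.01, 1 of 4), complex III at -0.05 (-0.07 to -0.04, 0 of 8), complex IV at -0.06 (-0.31 to 0.03, 1 of 16) and complex V at -0.04 (-0.17 to 0.08, 4 of 17). The smallest limma adjusted p in them was 0.535, 0.586, 0.703, 0.423 and 0.466. The direction of these medians was not stable: with a term for the library factor the members' median was 0.06 with 71 of 83 above 0 (0.01 for all genes). With the recovered reads in place of the deposited values it was 0.12 with 81 above 0. That shift is no sign of instability, since recovered reads keep the difference in library totals. The median of all genes was 0.17 there. Dividing by 1 factor per library shifts the fold change of every gene by nearly the same amount. That the members lay below all genes on this scale too is therefore given by construction and is no separate check.

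**Figure D1:**
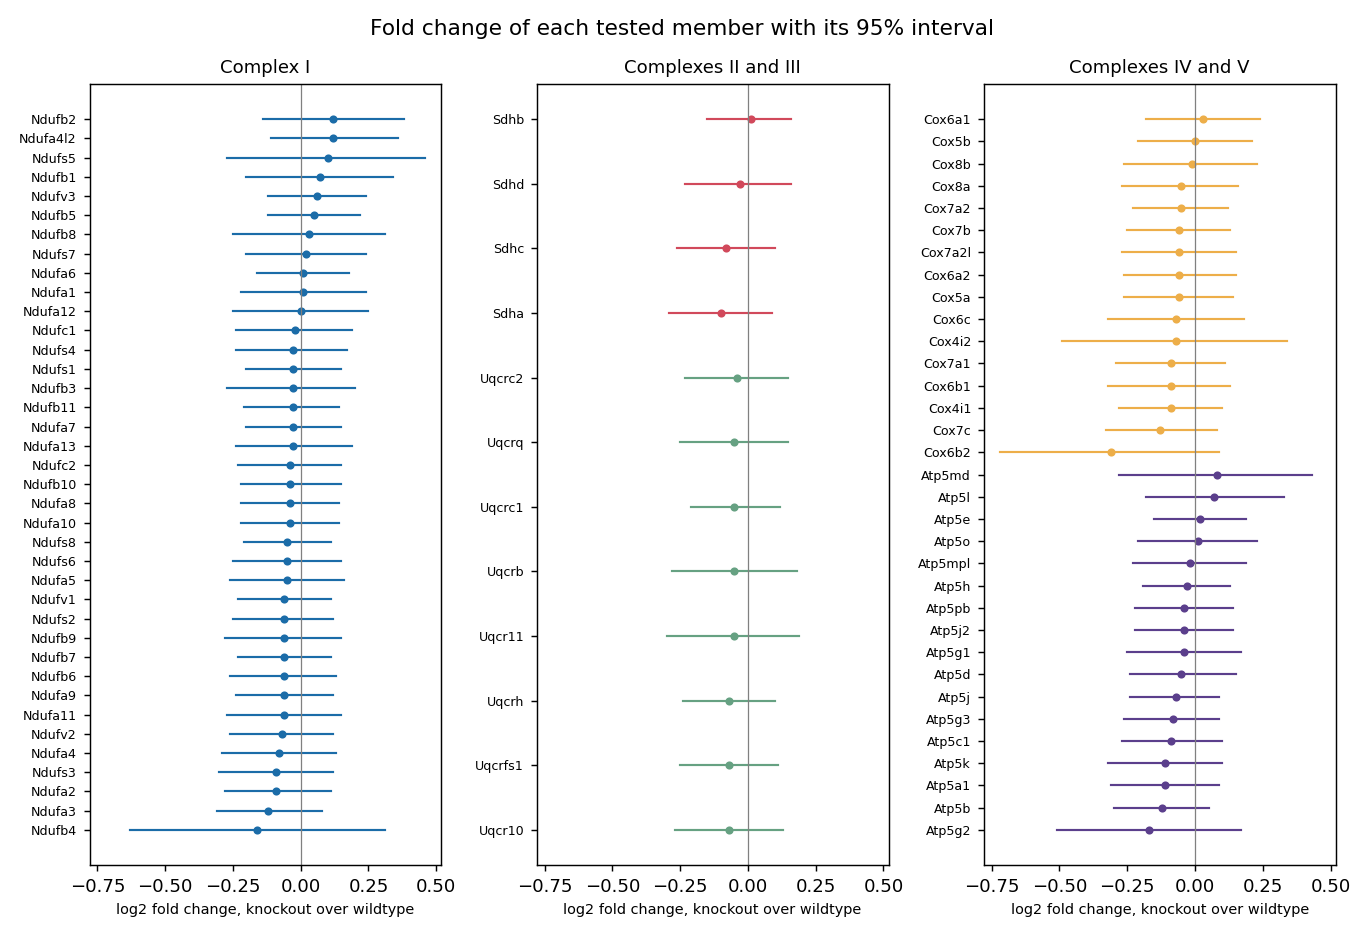
Log2 fold change of each tested member, knockout over wildtype on the log2(value + 1) scale, grouped by respiratory complex, with 95% limma intervals. All 83 points lie between -0.31 and 0.12, and none passed the adjusted threshold of 0.05.

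Complex I is the NADH dehydrogenase, the largest complex of the chain. Its core subunit Ndufs1, which carries iron-sulfur clusters, had values of 1618, 1641 and 1472 in knockout and 1642, 1471 and 1713 in wildtype libraries. The groups overlapped, with the lowest values in knockout 3 and wildtype 2, and the log2 fold change was -0.03 (SE 0.08; limma adjusted p = 0.888). The smallest p in the complex belonged to Ndufa3, an accessory subunit, with 300, 301 and 264 in knockout and 306, 300 and 332 in wildtype libraries. Knockout 3 was lowest and wildtype 3 highest, and the log2 fold change was -0.12 (95% interval -0.31 to 0.08; limma adjusted p = 0.535). Ndufa4l2, a relative of Ndufa4 known to respond to hypoxia, was at 204, 191 and 179 in knockout and 192, 168 and 168 in wildtype libraries. Its log2 fold change of 0.12 (95% interval -0.11 to 0.36; limma adjusted p = 0.609) was among the highest of any member, and wildtype 1 lay between the knockout libraries. Ndufb2, an accessory subunit of the membrane arm, had values of 148, 135 and 165 in knockout and 140, 132 and 139 in wildtype libraries. Knockout 3 was highest, knockout 2 lay within the wildtype range, and the log2 fold change was 0.12 (SE 0.12; limma adjusted p = 0.657).

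Complex II, succinate dehydrogenase, is the only complex shared with the citrate cycle and has only nuclear subunits. The flavoprotein Sdha was at 1936, 2034 and 1781 in knockout and at 2075, 1864 and 2232 in wildtype libraries. Wildtype 3 was highest and knockout 3 lowest, while the remaining libraries interleaved, and the log2 fold change was -0.10 (SE 0.08; limma adjusted p = 0.586). The iron-sulfur subunit Sdhb averaged 713 ± 7.09 in knockout and 710 ± 49.9 in wildtype (SD, n = 3 each), a difference of 0.01 in log2 terms. The membrane anchors Sdhc and Sdhd were both highest in wildtype 3 and next highest in knockout 2. Sdhc had values of 712, 751 and 673 in knockout and 730, 699 and 831 in wildtype libraries (log2 fold change -0.08, limma adjusted p = 0.675). Sdhd had values of 814, 863 and 760 against 816, 755 and 926 (log2 fold change -0.03, limma adjusted p = 0.885). In all 4 subunits the highest value was that of wildtype 3.

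Complex III, the cytochrome bc1 complex, had the narrowest spread of fold changes. Uqcrh, the hinge protein that helps cytochrome c bind, was at 442, 459 and 422 in knockout and 459, 432 and 498 in wildtype libraries, a log2 fold change of -0.07 (95% interval -0.24 to 0.10; limma adjusted p = 0.703). The Rieske iron-sulfur protein Uqcrfs1 had values of 741, 803 and 696 in knockout and 800, 720 and 833 in wildtype libraries (log2 fold change -0.07, limma adjusted p = 0.708). For Uqcr10, a small accessory subunit, the values were 318, 325 and 296 in knockout and 345, 297 and 346 in wildtype libraries (log2 fold change -0.07, limma adjusted p = 0.735). In all 3 genes knockout 3 was lowest and wildtype 3 highest, and knockout 2 exceeded wildtype 2. All 8 members of the complex were highest in wildtype 3.

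Complex IV, cytochrome c oxidase, held the member with the lowest fold change. Cox6b2, which is best known from testis, was at 63, 46 and 51 in knockout and 68, 69 and 61 in wildtype libraries. Knockout 1 lay above wildtype 3, so the groups overlapped, and the log2 fold change was -0.31 (SE 0.18; 95% interval -0.72 to 0.09; limma adjusted p = 0.423). Its widely expressed counterpart Cox6b1 averaged 376 ± 37.0 in knockout and 401 ± 40.0 in wildtype (SD, n = 3 each). Cox7c, a small structural subunit, had values of 204, 194 and 205 against 224, 203 and 232, a change of -0.13 on the log2 scale (limma adjusted p = 0.537), with wildtype 2 inside the knockout range. Cox4i1, the common form of the nuclear subunit that binds ATP, was at 608, 658 and 585 in knockout and 641, 601 and 728 in wildtype libraries (log2 fold change -0.09, limma adjusted p = 0.658), and again only wildtype 3 stood above knockout 2.

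Complex V had its smallest p in the catalytic beta subunit Atp5b, at 1762, 1879 and 1661 in knockout and 1893, 1792 and 2095 in wildtype libraries. Knockout 2 lay between wildtype 1 and wildtype 2, and the log2 fold change was -0.12 (95% interval -0.30 to 0.05; limma adjusted p = 0.466). Atp5a1, the alpha subunit, had values of 1903, 2057 and 1754 against 2026, 1863 and 2277 (log2 fold change -0.11, limma adjusted p = 0.586). Atp5k, a small membrane subunit, was at 247, 248 and 232 against 264, 237 and 284 (log2 fold change -0.11, limma adjusted p = 0.609). In each of these genes knockout 3 was lowest and wildtype 3 highest.

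Members that stood apart in 1 library were picked out after their values were seen. Cox6c, a complex IV subunit, was at 444 in knockout 3 and at 558 to 595 in the other 5 libraries, so that the fold change (log2) was -0.07 with that library and 0.07 without it. Atp5md, a small membrane subunit of complex V that supports ATP synthase dimers, was at 254 in knockout 3 and at 165 to 186 elsewhere, and its log2 fold change was 0.08 with that library and -0.12 without it. Both were single-library values, and neither gene passed the test in either case. Of the X-linked members, Ndufa1 was at 215, 221 and 211 in knockout and 221, 189 and 236 in wildtype libraries. Ndufb11 was at 432, 428 and 411 against 426, 404 and 472, and Cox7b at 414, 397 and 370 against 415, 377 and 441. Neither library with high Xist was highest for any of these 3 genes.

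Tissue isoforms were compared as the log2 ratio of paired members within each library, which cancels the library factor. Of 9 pairs, 0 had an adjusted exact permutation p under 0.05. With 3 libraries against 3 the smallest two-sided exact p is 0.1, so no pair could pass the threshold, and the values below stand as measurements with their spread. Cox6a2 is the heart and muscle form of subunit VIa and Cox6a1 the widely expressed form. Cox6a2 was at 412, 437 and 366 in knockout and 415, 389 and 459 in wildtype libraries, and Cox6a1 at 365, 384 and 332 against 345, 326 and 389. The log2 ratio of Cox6a2 to Cox6a1 was 0.17, 0.19 and 0.14 in the knockout libraries and 0.27, 0.25 and 0.24 in the wildtype libraries. All knockout ratios lay below all wildtype ratios, with a difference of -0.09 (SE 0.0159; exact permutation p = 0.1, adjusted over the 9 pairs p = 0.45). Leaving out any 1 library gave differences of -0.10 to -0.07.

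Ndufa4l2 over Ndufa4 was the other pair whose groups did not overlap. Its log2 ratio was -0.69, -0.87 and -0.78 in knockout and -0.88, -0.89 and -1.18 in wildtype libraries. The difference was 0.20 (SE 0.113; exact permutation p = 0.1, adjusted p = 0.45). Knockout 2 and wildtype 1 differed by only 0.01, and wildtype 3 lay apart from the other wildtype libraries: without it the difference was 0.10, and leaving out any other library gave 0.16 to 0.25. The 2 genes followed read totals differently: the correlation of log2 value with the log2 of the inverse read total was 0.923 for Ndufa4 and -0.251 for Ndufa4l2. Knockout libraries averaged 5274541 recovered reads and wildtype libraries 4626193. In the limma fit with a term for the library factor, the log2 fold changes were 0.14 for Ndufa4l2 and 0.05 for Ndufa4. Without that term they were 0.12 and -0.08. The part of read total in the ratio itself was not tested.

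The remaining pairs overlapped between groups. Subunit VIIa had log2 ratios of the muscle form Cox7a1 to the common form Cox7a2 of -0.80, -0.84 and -0.69 in knockout and -0.71, -0.76 and -0.75 in wildtype libraries, a difference of -0.03 (SE 0.0476; exact permutation p = 0.5). Subunit VIII had ratios of the muscle form Cox8b to the common form Cox8a of -0.42, -0.47 and -0.47 against -0.51, -0.51 and -0.46, a difference of 0.04 (SE 0.0212; exact permutation p = 0.3). Cox4i2, the form of subunit IV best known from lung and from oxygen-sensing cells, over Cox4i1 differed by 0.02 (SE 0.221; exact permutation p = 0.9). For Cox6b2 over Cox6b1 the difference was -0.22 (SE 0.22; exact permutation p = 0.4), and it was -0.05 without knockout 2, -0.12 without wildtype 2, -0.34 without knockout 1 and -0.35 without wildtype 3. Cox7a2l, a factor of respiratory supercomplexes, over Cox7a2 differed by -0.01 (SE 0.0457; exact permutation p = 0.8). The 3 genes for the c subunit of ATP synthase differed by -0.13 for Atp5g2 over Atp5g1 (SE 0.0753; exact permutation p = 0.3) and by -0.04 for Atp5g3 over Atp5g1 (SE 0.0405; exact permutation p = 0.4).

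**Figure D2:**
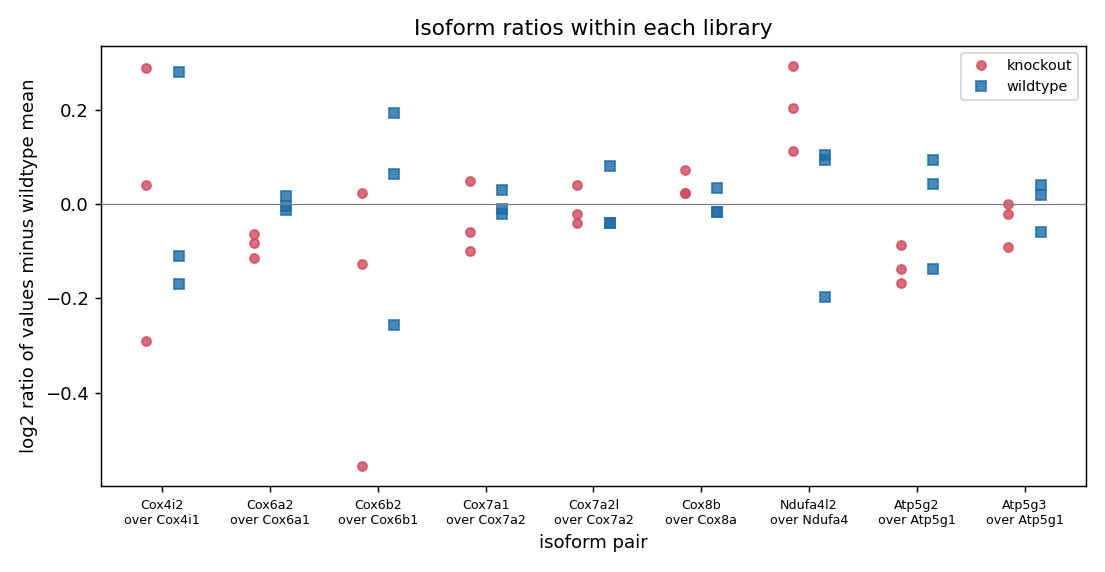
Log2 ratio of the paired isoforms in each of the 3 knockout and 3 wildtype libraries, 1 point a library, for 9 pairs. Ratios are shown minus the wildtype mean of the pair. The groups separate without overlap for Cox6a2 over Cox6a1 and for Ndufa4l2 over Ndufa4, with an exact permutation p of 0.1 for each.

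NRF1 and ETS factors such as GABP are known to bind many promoters of this pathway, and the members' promoters were searched for such motifs. RefSeq promoters of build GRCm38.p6, taken as 250 bases before the start and 50 after it, matched 68 of the 84 members. Matching was by gene ID, and by symbol where no ID was found. The NRF1 motif, GCGCA and GCGC with any base between them, searched on both strands, was in 16 of the 68 (23.5%) and in 4.78% of 27025 promoters in all. CCGGAAG, the ETS core, was also in 16 (23.5%) against 9.12%. ACGTG, the hypoxia response core, was in 18 (26.5%) against 19.7%, the MEF2 motif, CTA and TAG with any 4 bases between them, in 1 (1.47%) against 3.70%, and the E-box CAGCTG in 6 (8.82%) against 16.1%. Member promoters had a median GC content of 56.4% and all promoters 52.0%, and the motifs themselves are rich in G and C except that of MEF2. A match describes letters and not binding. Below are the 250 bases before the start of a common isoform (Cox6a1), of a complex II subunit with both motifs (Sdhd) and of a muscle isoform with neither (Cox8b), shown as examples of what the motifs look like in place. They were chosen for their motifs and do not stand for common or muscle genes in general: Cox7a2 and Cox7a2l, expressed widely, held neither the NRF1 nor the ETS motif. Each is given 5′ to 3′ on the minus strand of GRCm38.p6, with matches to the searched motifs in capitals.
Cox6a1, chr5:115348959-115349208: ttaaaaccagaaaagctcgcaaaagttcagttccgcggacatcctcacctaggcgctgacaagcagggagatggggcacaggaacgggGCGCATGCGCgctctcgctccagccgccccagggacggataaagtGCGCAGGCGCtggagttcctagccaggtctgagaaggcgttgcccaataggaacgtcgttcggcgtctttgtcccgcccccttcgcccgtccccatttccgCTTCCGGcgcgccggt
Sdhd, chr9:50603850-50604099: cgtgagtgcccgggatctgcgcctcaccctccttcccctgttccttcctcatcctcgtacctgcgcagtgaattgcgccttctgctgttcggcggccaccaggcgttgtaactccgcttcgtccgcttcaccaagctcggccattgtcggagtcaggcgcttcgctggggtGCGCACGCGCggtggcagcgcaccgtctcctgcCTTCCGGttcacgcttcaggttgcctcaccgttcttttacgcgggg
Cox8b, chr7:140900447-140900696: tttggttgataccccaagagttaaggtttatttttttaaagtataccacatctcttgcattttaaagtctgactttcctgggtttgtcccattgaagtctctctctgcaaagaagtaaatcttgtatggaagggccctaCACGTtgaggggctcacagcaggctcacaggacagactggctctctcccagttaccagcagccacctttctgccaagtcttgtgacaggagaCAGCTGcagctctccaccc
The Cox6a1 stretch holds 2 NRF1 motifs and 1 ETS motif at a GC content of 62.8%, Sdhd holds 1 of each at 64.4%, and Cox8b holds 1 ACGTG and 1 CAGCTG at 47.2%. None of the 3 genes passed the test: the limma log2 fold changes were 0.03 for Cox6a1 (adjusted p = 0.900), -0.03 for Sdhd (adjusted p = 0.885) and -0.01 for Cox8b (adjusted p = 0.970).

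Levels were compared between genes as recovered reads per transcript base, averaged over the 6 libraries. The heart and muscle isoforms stood near their common partners on this scale: Cox6a2 had 0.609 and Cox6a1 0.628 reads per base, Cox7a1 0.569 and Cox7a2 0.574, and Cox8b 0.613 and Cox8a 0.557. Whether reads per base follow RNA level in proportion among genes with many reads per base was not tested, and the treatment of duplicate reads is not given. Near values therefore need not mean near RNA levels. Less abundant forms were Cox4i2 at 0.125 beside Cox4i1 at 0.857, Cox6b2 at 0.129 beside Cox6b1 at 0.629, Ndufa4l2 at 0.199 beside Ndufa4 at 0.754, and Atp5g2 at 0.168 beside Atp5g1 at 0.637 and Atp5g3 at 1.17. The members ran from 0.0414 reads per base for Ndufb4 to 1.17 for Atp5g3. Their median was 0.567 reads per base, against 0.0923 for all tested genes with a length. Medians by complex were 0.517 for I, 0.649 for II, 0.677 for III, 0.571 for IV and 0.711 for V. Above 0.5 reads per base lay 53 of 82 members with a length (64.6%), beside 444 of 13190 genes in all (3.37%).

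The members shared a pattern across libraries that did not follow genotype. Against the wildtype mean, their median log2 value was -0.03, 0.01 and -0.13 in knockout 1 to 3 and 0.00, -0.12 and 0.12 in wildtype 1 to 3, while the same median over all genes stayed between -0.00 and 0.01. The values were lowest in knockout 3, which had the most reads, and highest in wildtype 3, which had the fewest. The order by read total was not complete: knockout 1 had more reads than wildtype 2 but a median of -0.03 against -0.12. Wildtype 3 held the highest value of 70 of the 83 members (2442 of all 14974 genes), and knockout 3 the lowest of 38 (3865 of all genes). Together the members took 0.835%, 0.858% and 0.779% of the knockout totals and 0.871%, 0.802% and 0.931% of the wildtype totals.

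**Figure D3:**
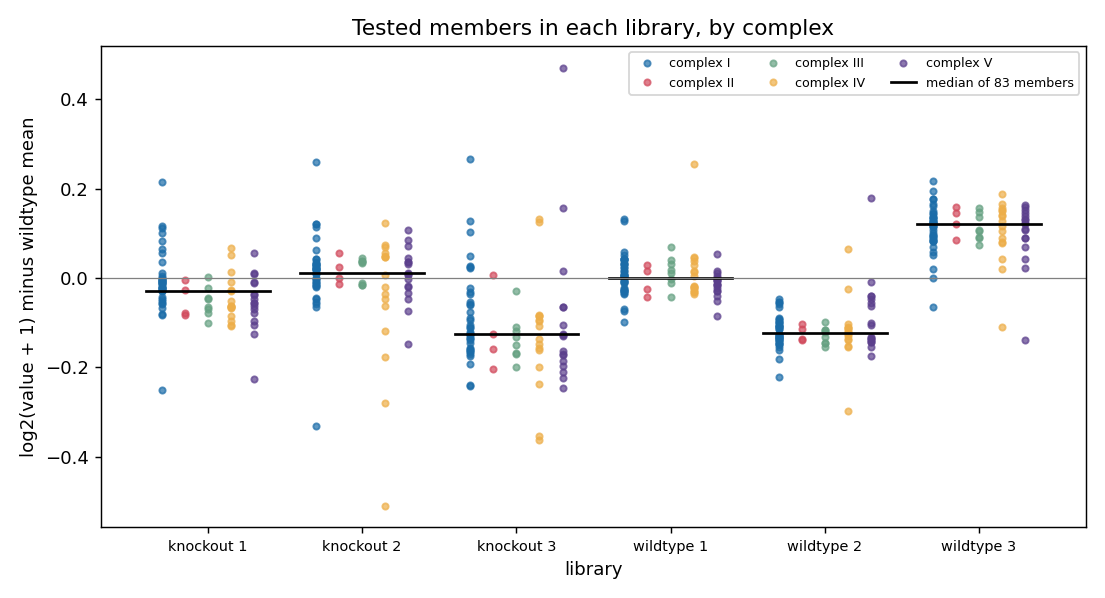
Log2(value + 1) of each tested member in every library, relative to its wildtype mean and coloured by complex. Black lines give the median of the 83 members. The median is highest in wildtype 3, at 0.12, and lowest in knockout 3 and wildtype 2, at -0.13 and -0.12. The medians of all 5 complexes were highest and lowest in the same libraries.

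Before scaling by the library factor, the median spread of the members' reads between libraries was below that of all genes. The median SD of log2 reads over the 6 libraries was 0.0912 for members and 0.24 for all genes, and that of the deposited log2 values was 0.106 for members and 0.167 for all genes. The examples that follow are among the least variable members. Sdha had 2066, 1959 and 2089 recovered reads in knockout and 1991, 1948 and 1892 in wildtype libraries. Atp5a1 had 2031, 1981 and 2058 against 1944, 1947 and 1930, and Cox6b1 had 402, 398 and 398 against 378, 381 and 376. The highest of the 6 read counts exceeded the lowest by 1.10-fold for Sdha, 1.07-fold for Atp5a1 and 1.07-fold for Cox6b1, although library totals differed by 1.395-fold. Over all members the median of this ratio was 1.18, beside 1.57 over all tested genes. A description over the 6 libraries is the correlation of a gene's log2 value with the log2 of the inverse read total: its median was 0.841 over members and 0.0199 over all genes, and it exceeded 0.8 in 54 members (65.1%) and 1262 genes (8.43%). Values are reads times a library factor, and the totals of the values were nearly equal. A gene with equal reads in all libraries would therefore have a correlation near 1 by construction. The correlation was also high in other genes with many reads per base. Other protein-coding genes at 0.6 to 0.8 reads per base, with 50 reads or more on average, had a median of 0.715. Members in that class had 0.849. Above 0.8 reads per base the medians were 0.732 for other genes and 0.887 for members, and at 0.1 to 0.2 they were -0.0442 and 0.232. All of these correlations share the same 6 library totals.

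**Figure D4:**
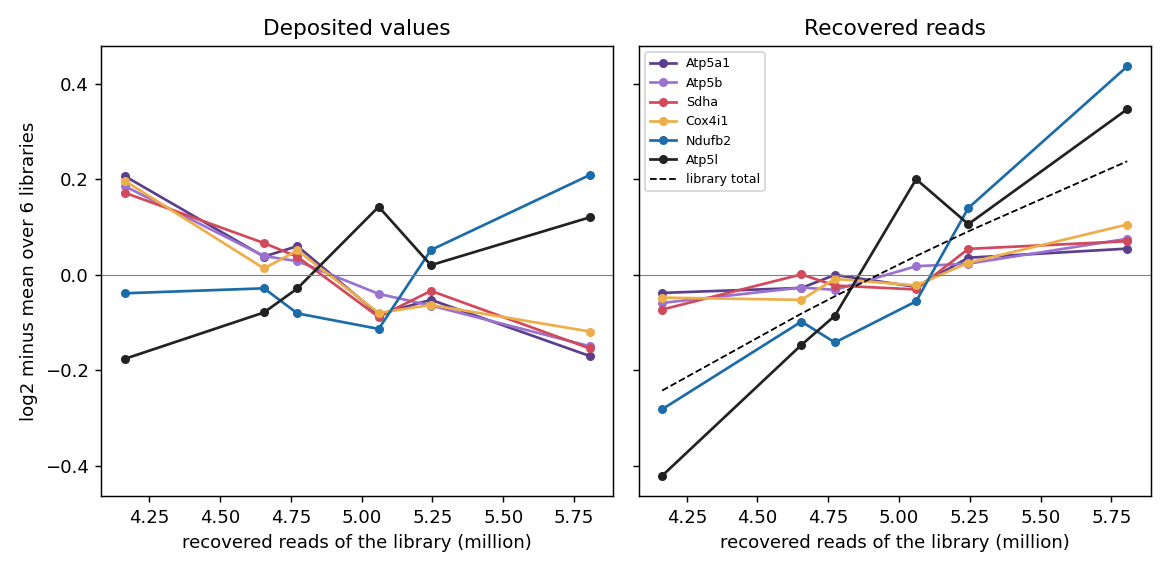
Log2 deposited values (left) and log2 recovered reads (right) of Atp5a1, Atp5b, Sdha, Cox4i1, Ndufb2 and Atp5l against the recovered read total of each library. Each gene is shown minus its mean over the 6 libraries, and the dashed line is the library total. The deposited value of Atp5a1 was 2277 in wildtype 3, with 4163230 reads, and 1754 in knockout 3, with 5805783 reads. For Atp5l these values were 158 and 194.

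Among genes with 50 reads or more on average that were no members, the median ratio of highest to lowest reads was 1.63 below 0.1 reads per base, 1.45 at 0.1 to 0.2, 1.38 at 0.2 to 0.3, 1.30 at 0.4 to 0.5, 1.23 at 0.6 to 0.8 and 1.28 above 0.8. The 7 members at 0.1 to 0.2 had 1.43, close to the other genes, and members in the higher classes just listed had 1.16, 1.18, 1.18 and 1.16. Members above 0.5 reads per base had a median log2 fold change of -0.05 and the 28 at or below it, with 50 reads or more, -0.04. The 391 other genes above 0.5 had -0.02. The part of read total in the fold changes was not tested beyond the term for the library factor given above.

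**Figure D5:**
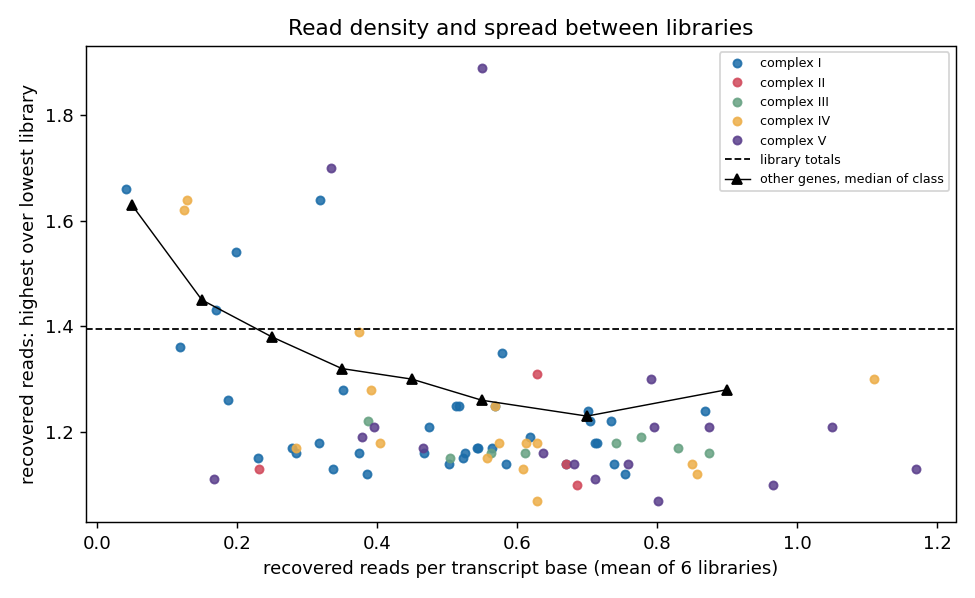
Ratio of the highest to the lowest recovered read count over the 6 libraries, plotted against recovered reads per transcript base, for each member. Triangles give the median of other protein-coding genes with 50 reads or more in each class of reads per base. The dashed line is the ratio of library totals. The members lie toward high reads per base and low ratios, with a median ratio of 1.18.

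Of the tested members, 4 had a negative correlation of this kind. Atp5l, subunit g of ATP synthase, had 193, 169 and 228 recovered reads in knockout and 162, 206 and 134 in wildtype libraries, a 1.70-fold range, at 0.335 reads per base. Ndufb2 had 158, 130 and 194 against 134, 138 and 118, a 1.64-fold range, and Ndufa4l2 ranged 1.54-fold. In Atp5l and Ndufb2 the reads were highest in knockout 3 and lowest in wildtype 3, as the library totals were. The correlation of the values with the inverse total was -0.873, -0.684 and -0.251 in these 3 genes and -0.580 in Atp5md, over the 6 libraries. Atp5l was picked out after its values were seen.

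The genes that build and regulate the chain were read from the same fit. Among assembly factors, 0 of 16 tested for complex I, 0 of 4 for complex II, 0 of 6 for complex III, 0 of 24 for complex IV and 0 of 4 for complex V passed the adjusted threshold in limma, and 4, 0, 0, 4 and 0 of them had an unadjusted p below 0.05, where 16.4% of all genes did. The medians of log2 fold change in these lists were -0.04, 0.05, -0.03, 0.09 and -0.02. Sco2, a copper chaperone for complex IV, was at 41, 44 and 59 in knockout and 25, 28 and 32 in wildtype libraries. Every knockout library lay above every wildtype library, as for 11.0% of all genes, with a log2 fold change of 0.73 (SE 0.22; limma adjusted p = 0.152). Foxred1, an assembly factor of complex I, was at 663, 625 and 607 against 742, 685 and 782, also without overlap, as for 10.9% of all genes (log2 fold change -0.22, SE 0.07; limma adjusted p = 0.176). The smallest p of the other assembly lists belonged to Sdhaf3 (-0.16, limma adjusted p = 0.622), Bcs1l (-0.16, 0.468) and Tmem70 (-0.05, 0.824).

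Regulators of mitochondrial biogenesis had 0 of 17 genes past the adjusted limma threshold and a median of 0.02. An unadjusted limma p below 0.05 was found for 2 of the 17, beside 16.4% of all genes. Gabpb1 encodes the beta subunit of GABP, an ETS factor known for driving many respiratory chain promoters. It was at 245, 255 and 216 in knockout and 322, 310 and 302 in wildtype libraries, with a log2 fold change of -0.39 (SE 0.09, limma adjusted p = 0.0789). All its knockout values lay below all wildtype values, as for 10.9% of all genes. Perm1, a muscle regulator of oxidative genes, was at 1116, 1119 and 1083 against 905, 847 and 1037 (0.26, SE 0.08, limma adjusted p = 0.158). Its knockout values all lay above the wildtype values, as for 11.0% of all genes. The fold changes of Gabpa, the DNA-binding partner of Gabpb1, and of Nrf1, Tfam and Esrra were 0.01, -0.01, 0.00 and 0.02. Ppargc1a, the coactivator PGC-1alpha, was at 1072, 833 and 1338 against 842, 1030 and 886 (0.21, SE 0.17; limma adjusted p = 0.579), with overlap.

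Citrate cycle enzymes had 0 of 13 genes past the threshold in limma and 0 with an unadjusted p below 0.05, and 1 of the 13 lay above 0, with the median at -0.04. Suclg2 had the smallest p (-0.12, limma adjusted p = 0.397). The medians of this list by library were -0.05, 0.04 and -0.14 in knockout and -0.00, -0.12 and 0.12 in wildtype, the order seen in the members. The other chain components, such as cytochrome c and the electron transfer flavoproteins, had 0 of 8 past the threshold, 0 at an unadjusted p under 0.05 and 0 above 0, with Etfa at -0.09 (limma adjusted p = 0.601).

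Cell type markers give the setting of these values. Of the cardiomyocyte markers 0 of 13 passed the limma threshold, which 0.942% of all genes passed. An unadjusted limma p below 0.05 was found for 3 of the 13, beside 16.4% of all genes. In this list 3 lay above 0 and the median was -0.09. Myh7 had the smallest p (0.25, limma adjusted p = 0.0901), and the library medians, -0.11, 0.04 and -0.18 in knockout and -0.03, -0.10 and 0.12 in wildtype, were lowest in knockout 3 and highest in wildtype 3, as in the members. Of the pericyte and mural markers 5 of 8 lay above 0 and the median was 0.06. In this list 3 had an unadjusted limma p below 0.05, beside the same 16.4% of all genes. The one called was Cspg4, which averaged 1207 ± 97.2 in knockout and 892 ± 57.2 in wildtype (SD, n = 3 each; log2 fold change 0.43, limma adjusted p = 0.0472). Without wildtype 2 or wildtype 3 no gene of the table, Cspg4 included, was called. Others of this list lay on the other side of 0. Myh11, a smooth muscle myosin, was at 171, 227 and 216 in knockout and 303, 339 and 289 in wildtype libraries (-0.61, limma adjusted p = 0.057). Its groups did not overlap, as for 10.9% of all genes, and Kcnj8 and Abcc9 had -0.23 and -0.18. Summed pericyte and mural values were 6493 to 6732 in knockout and 6224 to 6500 in wildtype libraries. Endothelial markers summed to 6574 to 7037 against 6324 to 6686, fibroblast markers to 11427 to 14003 against 12123 to 14258, leukocyte markers to 984 to 1086 against 936 to 1013, erythroid markers to 811 to 2144 against 741 to 957 and epicardial markers to 912 to 1694 against 1553 to 1701. Epicardial markers had a median log2 value of -1.30 in knockout 3 relative to wildtype, but the list was split. Upk3b, Msln, Upk1b and Aldh1a2 were at 79, 136, 34 and 132 there, below every wildtype library. Wt1 was at 245, above the wildtype libraries (191, 225 and 218), with a log2 fold change of 0.28 over all libraries. Tbx18 was at 286, within the wildtype values of 307, 322 and 271. Lists for skeletal muscle, summing to 1575 to 1766 against 1824 to 2055, and for brown fat, 937 to 1670 against 1364 to 1434, hold genes that heart also expresses, while Myod1 and Myog, which define skeletal muscle, did not reach the minimum for a test. None of these 7 lists after the mural one had a called gene, and the smallest limma adjusted p was 0.0669 for Emcn among endothelial, 0.49 for Dcn among fibroblast, 0.288 for C1qb among leukocyte and 0.185 for Wt1 among epicardial markers, and 0.268 for Myh3 and 0.119 for Dio2 in the last 2 lists. The part of these cell types in the members' values was not tested.

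In the deposited coordinates, on build mm39, Cox6a1 lies on chromosome 5 from 115483701 to 115487040 and Cox6a2 on chromosome 7 from 127804607 to 127805559, both on the minus strand. Ndufa4l2 (chromosome 10, 127350836 to 127353023) and Atp5b (chromosome 10, 127919142 to 127926260) are on the plus strand. Cox6b2 lies on chromosome 7 from 4754791 to 4756093, minus strand, and Sdha on chromosome 13 from 74470373 to 74498399, minus strand.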

How the data were processed

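Stranded mRNA libraries of heart RNA were sequenced as single-end reads, per the labels' protocols. The submitters' processing notes list Trimmomatic 0.39, STAR 2.7.11a, Picard 3.0.0, featureCounts 2.0.4, DESeq2 1.36.0 and build mm39, with no role or setting; not given in the sources used here were the treatment of duplicate reads and the use of strand in counting. Values deposited by the authors are whole-number scores, with the pattern of reads multiplied by a library factor and rounded. The factors were estimated here from the pattern of values under 400, and values were divided by them and rounded to whole reads. Where the factor is below 1, every value lies within rounding of a read number, so reads are recovered only to within 1 there. Since the values are not raw counts, limma 3.58.1 (statmod 1.5.0, R 4.3.3) was fitted to log2(value + 1) of all 6 libraries, with an intensity trend and robust moderation, for genes at 10 or more in at least 3 libraries (14974 genes), with Benjamini-Hochberg adjustment and a threshold of 0.05. The script was tested on simulated data. Reads per base used the shortest APPRIS principal transcript of GENCODE M21, matched by gene ID; 82 of 83 tested members had a length. Isoform ratios used an exact permutation test, and errors are SDs unless SE is written.

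Members, gene lists and tests were chosen with earlier results of these data known. Named were Rbpms, the 3 members of each complex with the smallest p, every isoform in a pair, and in each other list the called genes or the one with the smallest p; Ndufs1, Sdhb, Cox6c, Atp5md, Atp5l, Ndufb4, the X-linked members, Perm1, Ppargc1a, Gabpa, Nrf1, Tfam, Esrra and the other genes outside this rule were added after their values were seen. The gene with the smallest p among the erythroid markers is not reported here. Alternatives changed the scaling, filter, pseudocount, moderation, test, replicate block and libraries; recovered reads and terms for the library factor and for Xist were added after seeing the data. Replicate numbers did not pair the libraries.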

Additional observations from a re-analysis of the deposited data

How the results depend on the processing

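No member passed the limma threshold under any of the 18 alternatives, and the smallest adjusted p of a member in them was 0.307. The median log2 fold change of the members, -0.05, was 0.12 with recovered reads and 0.06 with a term for the library factor, both added after seeing the data, and -0.11 to 0.01 when 1 library was left out (-0.01 without knockout 3, 0.01 without wildtype 3 and -0.11 without wildtype 2). By construction recovered reads keep the difference in library totals, and the median of all genes was 0.17 with them. The 28 named members changed sign in 54 of 504 comparisons, which include those with recovered reads, and 0 of them was called.

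The count of genes called over the whole table, 141, was 86 with upper quartile scaling, 218 with no filter, 83 with a minimum of 50, 24 without trend and robust moderation, 72 with voom, 39 with recovered reads and 223 with a term for Xist. A term for the library factor left 0 in limma, with 2014 genes at an unadjusted p under 0.05. Leaving out 1 library gave 0 to 727: 6, 510 and 727 without knockout 1, 2 and 3, and 3, 0 and 0 without wildtype 1, 2 and 3 (2176 and 1852 genes at an unadjusted p under 0.05 in the last 2 limma fits). The cause was not tested. With the replicate block the count was 23, and 0 members. The numbers did not pair the libraries: deviations of same-numbered libraries correlated at -0.17, -0.11 and -0.13, and each knockout library correlated best with another number. The isoform differences of Cox4i2 over Cox4i1 and Cox7a2l over Cox7a2 changed sign 5 times when 1 library was left out (-0.12 to 0.17 and -0.03 to 0.03). None of the 9 pairs could be called in any setting, since the smallest possible exact permutation p was 0.1, and 0.25 with the replicate block. The results for Cox6b2, Cox4i2, Atp5g2, Ndufb4 and Ndufs5 rest on few reads, since their values stayed near or below 100. Why these values were low was not tested.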
